A study of Picea glauca with 69 samples.

Results

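GID and DELLA are 2 of the 5 gibberellin genes measured by quantitative PCR in white spruce (Picea glauca), and are described here in all 69 seedlings. Both were chosen by name: GID is the gibberellin receptor and DELLA the growth repressor that acts directly below it, and each had 2 PCR wells per seedling. The protocol in the labels names them PgGID1 and PgDELLA1. The other 3 genes encode enzymes that make or inactivate the hormone.

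Gibberellin is the hormone that drives stem elongation in plants, including conifer shoots. The soluble receptor GID binds the active hormone, and the bound receptor then docks onto DELLA, which marks DELLA for destruction. DELLA itself holds back growth genes, so hormone, receptor and repressor form one switch. Much of this switch works on the DELLA protein, which transcript levels do not measure.

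All seedlings were untreated and grown in a greenhouse through their second season, with a photoperiod of 16 h light and 8 h dark and maximum temperatures of 25 °C (day) and 18 °C (night). Harvest was on day 92. They came from 3 breeding strategies: 18 seedlings of 6 families from controlled crosses (CC, titled with the numbers of both trees), 21 seedlings of 6 families from polymix pollination (PM, titled with 1 tree number) and 30 seedlings of 8 families from open pollination (OP, the study's control). A family here is all seedlings with the same title, such as 129_PM or 927*991_CC. There were 17 families of 3 seedlings and 3 families of 6, and 6 first-numbered trees had a family of each strategy. The design text counts 23 families of 3, which the titles do not separate. The tissue label reads needles, whereas the extraction protocol names the apical internode, and no marker of either was measured. Because RNA was taken from whole tissue, less transcript per cell and fewer expressing cells cannot be told apart. Nothing in the labels ties a seedling to a growth block, so the p-values below measure only the spread between these families or seedlings. Most rest on family means. Those of the F tests over families, and of comparisons between or within the families of 6, rest on single seedlings.

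Values are log2 levels relative to the control gene TIF, that is the TIF threshold cycle minus the target's, so a higher value means more transcript and 1 unit is a 2-fold change if amplification is perfect. Across the 69 seedlings GID ranged from -8.59 in 927_OP repetition 5 to -6.61 in 754_OP repetition 3, with a median of -7.71. DELLA ranged from -6.58 in 193_PM repetition 2 to -2.22 in 927*991_CC repetition 3, with a median of -5.40. These are levels from different primer pairs, so the difference between the genes in 1 seedling carries no meaning of its own, and only its variation among seedlings is used below.

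The DELLA range was set by 3 seedlings whose 2 DELLA wells disagreed by over 2 cycles. In 754_PM repetition 2 the wells crossed the threshold at 27.0 and 24.6 cycles. In 138_PM repetition 3 they read 27.7 and 23.0 cycles, and in 927*991_CC repetition 3 they read 20.9 and 27.3 cycles. In each of the 3 the earlier well lay farther from the other seedlings, whose median was 26.4 cycles, and the earlier well was well 2 in 2 of them. The deposited values average both wells. They put DELLA at -4.09 in 754_PM repetition 2, at -2.62 in 138_PM repetition 3 and at -2.22 in 927*991_CC repetition 3, above all of the other 66 seedlings, which lay between -6.58 and -4.60.

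With the later well alone, these seedlings read -5.29, -4.98 and -5.41, inside the range of the others. The later well was kept because it lay nearer the others, so this does not show which well is right. The deposited average was 2.29-fold, 5.14-fold and 9.15-fold above the later well in turn. None of the 30 OP seedlings had such a pair of wells, against 1 of the 18 CC and 2 of the 21 PM seedlings. Among the other 66 seedlings the widest DELLA pair differed by 0.802 cycles. Both versions are given from here on, as deposited and with the deviating well set aside.

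**Figure D1:**
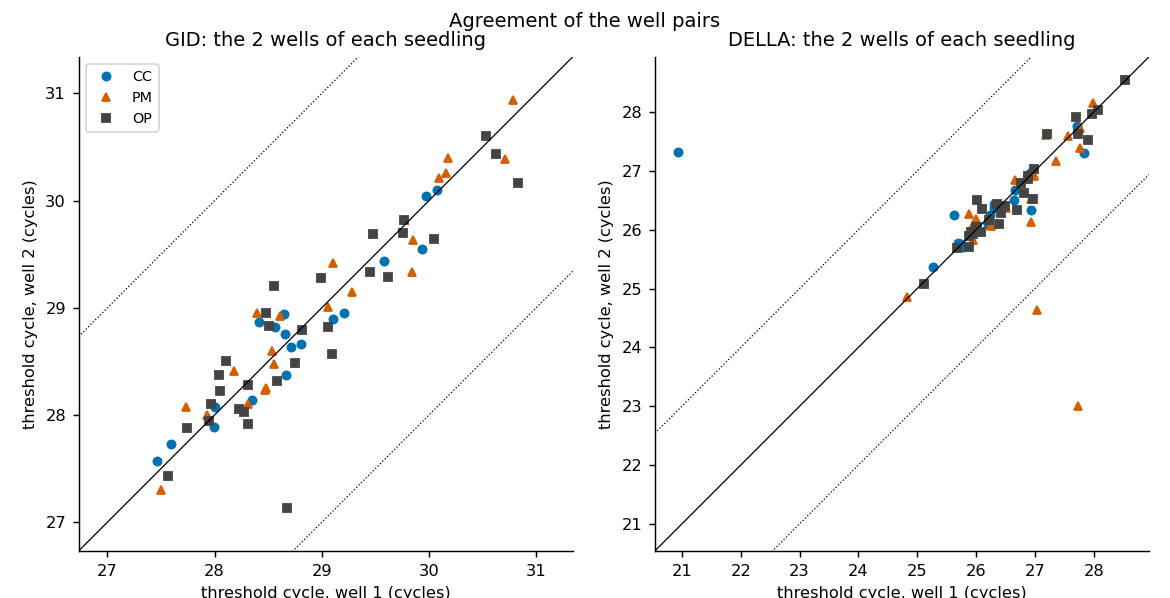
Threshold cycle of well 1 (x axis) against well 2 (y axis), both in cycles, for GID (left) and DELLA (right), 1 point per seedling, coloured by strategy. The solid line marks equal wells and the dotted lines a difference of 2 cycles. The GID points all lie within the dotted lines, while 3 DELLA points, from 1 CC and 2 PM seedlings, lie outside them.

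GID wells were never that far apart. Their median difference was 0.211 cycles against 0.102 for DELLA and 0.104 for TIF, and 6 of 69 GID pairs, 7 DELLA pairs and 3 TIF pairs differed by over 0.5 cycles. The widest GID pair, 28.7 and 27.1 cycles, belonged to 754_OP repetition 3, which also had the highest GID level of all seedlings, -6.61. From the differences between wells, well error made up 27.2% of the variance of GID between seedlings, with the wide pair of 754_OP repetition 3 included. It made up 67.5% of the variance of DELLA as deposited and 20.4% without the 3 seedlings. For the GID to DELLA ratio, the log2 level of GID minus that of DELLA, it made up 45.7% without them. These shares count only the wells run with GID and DELLA, and not the other TIF wells of each seedling described below.

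With the deviating wells aside, GID and DELLA varied about as much as each other. The standard deviation between seedlings was 0.38 for GID and 0.36 for DELLA, against 0.64 for DELLA as deposited. The genes of hormone metabolism, as deposited, had larger values than 0.38 and 0.36, with 0.73 for GA2ox, which inactivates gibberellin, and 1.20 for GA3ox and 0.62 for GA20ox, which make it. No wells were set aside for these 3 genes, and DELLA as deposited lay above GA20ox. How much of their variation is well error was not tested. The ratio spanned -2.91 in 122*1047_CC repetition 1 to -1.46 in 193_PM repetition 2, a 2.74-fold range.

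**Figure D2:**
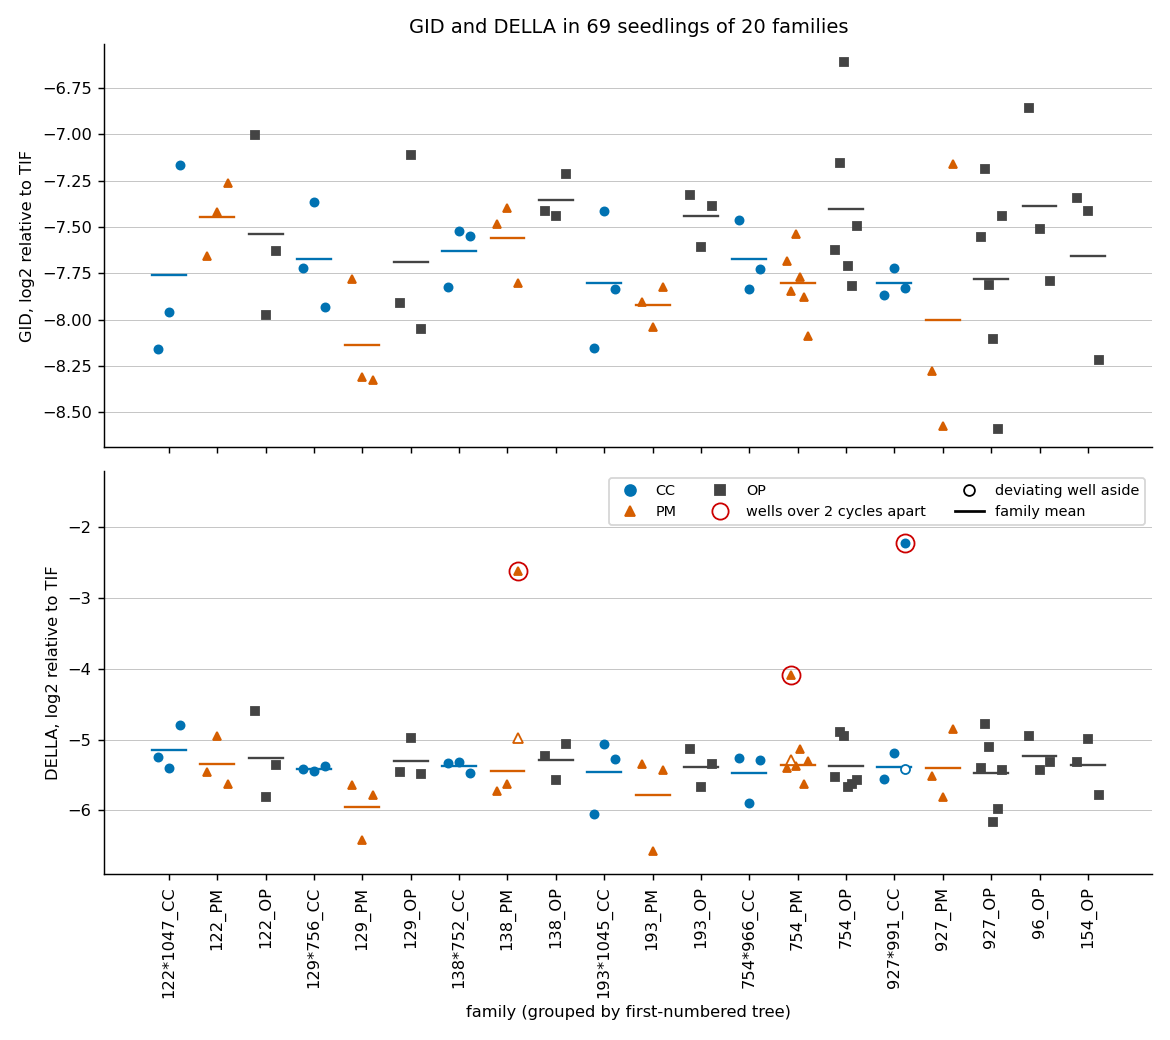
Log2 level relative to TIF (y axis) of GID (top) and DELLA (bottom) for each of the 69 seedlings, by family and in order of repetition, with a horizontal bar at each family mean. Red rings mark the 3 deposited DELLA values from discordant wells, open symbols the same seedlings with the deviating well aside, and the DELLA bars use the latter. GID seedlings of 927_PM span the range of the family bars, and so do those of 927_OP.

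Seedlings of the same family differed widely. For GID, family means ran from -8.14 ± 0.31 (SD, n = 3) in 129_PM to -7.35 ± 0.12 (n = 3) in 138_OP, a 1.72-fold range. The 129_PM seedlings read -7.78, -8.31 and -8.33, and the 138_OP seedlings read -7.41, -7.44 and -7.21. The lowest and the highest family did not overlap, but they were picked as the extremes by these same values. The 3 seedlings of 927_PM read -8.28, -8.57 and -7.16 and so covered the whole range of family means. The 6 seedlings of 927_OP, from -8.59 to -7.19, covered it as well. Those of 96_OP, at -6.86, -7.51 and -7.79, covered much of it.

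In the order of GID means, 138_OP, 96_OP, 754_OP and 193_OP stood highest, from -7.35 to -7.44, and 193_PM, 927_PM and 129_PM lowest, from -7.92 to -8.14. None of the 19 gaps between neighbouring families exceeded its standard error. Neighbours in a sorted order lie close by construction, so this count is no test of family differences. The within-family SD was 0.38 and the SD of family means 0.21. No family effect passed a one-sided F test with permuted seedlings (F = 1.04, p = 0.435, adjusted 0.839 over 5 genes).

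DELLA was lowest in 129_PM, where the seedlings read -5.65, -6.42 and -5.78, a mean of -5.95 ± 0.41 (n = 3). It was next lowest in 193_PM, with -5.35, -6.58 and -5.43, where repetition 2 lay below all OP seedlings and the others did not. With the deviating wells aside it was highest in 122*1047_CC, with -5.24, -5.40 and -4.80, a mean of -5.15 ± 0.31 (n = 3). As deposited the order was led instead by 927*991_CC at -4.32 and 138_PM at -4.66, both families with a discordant seedling, which otherwise had means of -5.39 and -5.45. None of the 19 gaps exceeded its standard error in either version, which for sorted means is again no test. F was 0.831 (permutation p = 0.674) as deposited and 0.664 (permutation p = 0.836) with the wells aside, with an adjusted p of 0.839 in both.

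The ratio was highest in 754_OP at -2.03 ± 0.22 (n = 6). With the deviating wells aside it was lowest in 122*1047_CC at -2.61 ± 0.28 and 927_PM at -2.61 ± 0.26 (n = 3 each). The F over families was 1.10 (permutation p = 0.384, adjusted 0.409 over 2 ratios). As deposited, 927*991_CC was lowest at -3.48, with seedlings at -2.30, -2.53 and -5.61. In that version 1 of the 19 gaps between neighbouring families exceeded its standard error.

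Breeding strategy was the comparison the study was built for, with OP as the control. GID was lower by family means in both kinds of controlled pollination, but the differences did not pass the adjusted threshold of 0.05. The 8 OP families averaged -7.53 ± 0.16 (SD), the 6 CC families -7.72 ± 0.07 and the 6 PM families -7.81 ± 0.27. The CC means lay between -7.80 and -7.63, the PM means between -8.14 and -7.45 and the OP means between -7.78 and -7.35, so the 3 groups overlapped. GID in CC was 0.875 of OP (95% interval 0.786 to 0.976, exact permutation p = 0.0243, adjusted 0.201 over 15 gene contrasts). In PM it was 0.823 of OP (0.694 to 0.980, exact permutation p = 0.0316, adjusted 0.201). CC and PM differed by 0.09 on the log2 scale, with an interval from -0.18 to 0.33 (exact permutation p = 0.437, adjusted 0.830).

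As deposited, no DELLA contrast had a p near the threshold. CC families averaged -5.20 ± 0.45, PM families -5.38 ± 0.46 and OP families -5.34 ± 0.08, and the exact permutation p was 0.582 for CC against OP, 0.835 for PM against OP and 0.517 for CC against PM. With the deviating wells aside the means were -5.38 ± 0.12 in CC and -5.55 ± 0.26 in PM. PM was then at 0.864 of OP (0.747 to 0.986, exact permutation p = 0.0263, adjusted 0.151), and CC at 0.971 of OP (0.901 to 1.05, exact permutation p = 0.444, adjusted 0.665).

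The GID to DELLA ratio in CC also moved with the discordant wells. As deposited it was 0.797 of the OP ratio (0.607 to 0.990, exact permutation p = 0.0366, adjusted 0.0733 over 6 ratio contrasts), and with the deviating wells aside 0.901 (0.799 to 1.01, exact permutation p = 0.0733, adjusted 0.147). Without the family 927*991_CC, the deposited log2 difference moved from -0.33 to -0.14 (exact permutation p = 0.127). PM stood at 0.850 of OP as deposited (exact permutation p = 0.0922) and at 0.952 with the wells aside (0.828 to 1.09, exact permutation p = 0.465).

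The spread of DELLA between families was as dependent on these wells. As deposited the SD of family means was 0.45 in CC and 0.46 in PM against 0.08 in OP, and the mean absolute deviation from the median was larger in PM than in OP (exact permutation p = 0.0180, adjusted 0.180 over 10 spread contrasts). With the wells aside the SD fell to 0.12 in CC and 0.26 in PM (exact permutation p = 0.854 and 0.173 against OP). With the 3 seedlings left out instead, the PM difference in spread passed (exact permutation p = 0.000999, adjusted 0.00999). For GID the SD was 0.07 in CC and 0.27 in PM against 0.16 in OP, with exact permutation p of 0.0579 and 0.247 and adjusted p of 0.290 and 0.617.

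The other 3 genes of the pathway gave 9 contrasts, of which 1 had an unadjusted exact p under 0.05 and 0 an adjusted one. It was GA3ox, the enzyme of the last step of synthesis, which was 0.57 higher in CC than in OP (exact permutation p = 0.0403, adjusted 0.201). The inactivating enzyme GA2ox was -0.31 in CC and -0.28 in PM relative to OP (exact permutation p = 0.136 and 0.116). GA20ox, the enzyme before GA3ox, was 0.13 and 0.08 (exact permutation p = 0.538 and 0.609).

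Within the 6 trees that had all 3 strategies, GID was lower in CC than in OP in 5 trees and lower in PM than in OP in 5 trees. The CC differences ran from -0.36 in tree 193 to 0.02 in tree 129, with a mean of -0.19 ± 0.15 (SD, n = 6 trees). The PM differences ran from -0.48 in tree 193 to 0.09 in tree 122, with a mean of -0.28 ± 0.21. The exact sign-flip p was 0.0625 for each, where 6 trees allow no p below 0.0312. The trees that went the other way differed between the strategies.

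Tree 193 had the widest GID differences. Its OP seedlings read -7.33, -7.61 and -7.39, its PM seedlings -7.91, -8.04 and -7.83, and its CC seedlings -8.15, -7.42 and -7.84. All PM seedlings lay below all OP seedlings, and the CC seedlings overlapped both. In tree 138 the CC seedlings, at -7.82, -7.52 and -7.55, all lay below the OP seedlings, at -7.41, -7.44 and -7.21. In the other 5 trees of each comparison with OP, GID seedlings overlapped.

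For DELLA with the deviating wells aside, PM was lower than OP in 4 of 6 trees (mean -0.20 ± 0.27, exact sign-flip p = 0.156) and CC in 4 of 6 (mean -0.03 ± 0.10, exact sign-flip p = 0.594). The PM mean was carried by tree 129, at -0.64, and tree 193, at -0.40, while the other 4 trees lay between -0.16 and 0.08. In tree 129 the OP seedlings read -5.46, -4.98 and -5.49 and the CC seedlings -5.42, -5.44 and -5.37, and the PM seedlings lay below all of them. GID in tree 129 differed less between PM and OP, at -0.45, and the ratio was 0.19 higher in PM than in OP, against lower in 4 of the 6 trees. The ratio in CC was below OP in 5 of 6 trees in both versions (exact sign-flip p = 0.0938 with the wells aside).

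**Figure D3:**
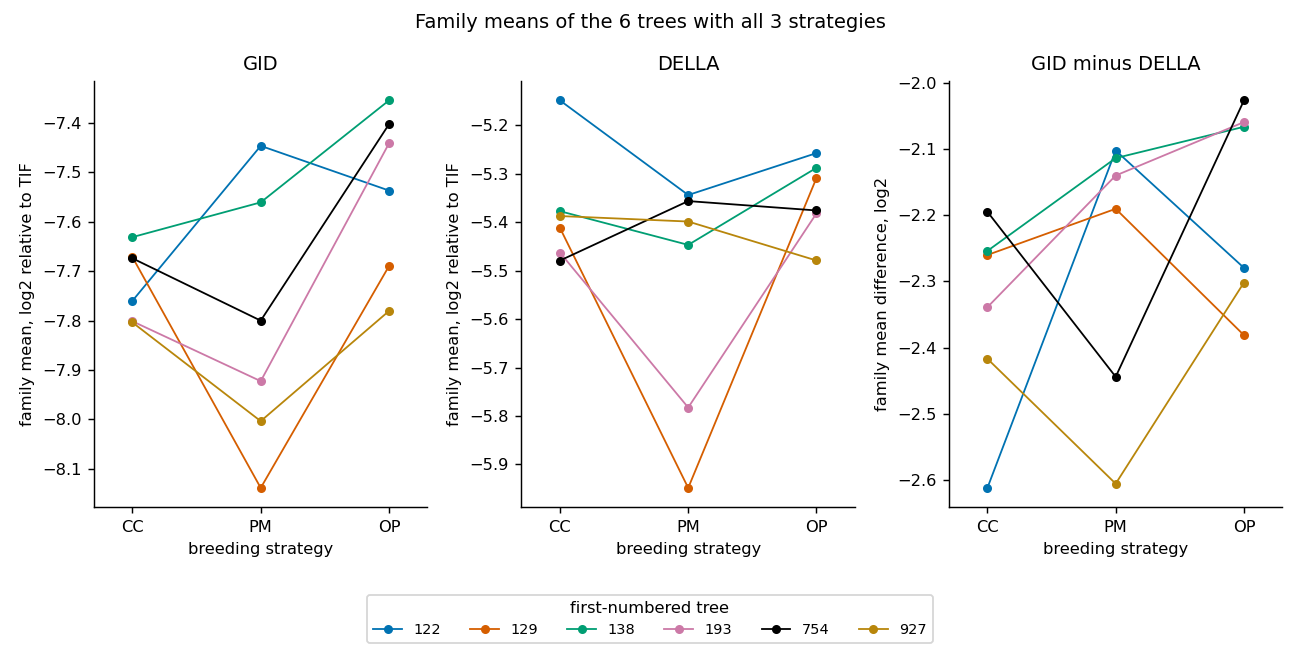
Family means of GID, DELLA (log2 relative to TIF, deviating wells aside) and their log2 difference (y axes) in the CC, PM and OP family (x axis) of each of the 6 trees, 1 line per tree. GID lines rise to OP from CC in 5 of 6 trees and from PM in 5 of 6, and the DELLA dip in PM comes from trees 129 and 193.

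No effect of the tree passed the test. GID means over the 3 families of a tree ran from -7.86 ± 0.12 in tree 927 to -7.52 ± 0.14 in tree 138. The additive model with strategy gave F = 2.56 for tree (one-sided permutation p = 0.0666, adjusted 0.333 over 5 genes). For DELLA it gave F = 0.920 (permutation p = 0.532) as deposited and 1.66 (permutation p = 0.196, adjusted 0.357) with the wells aside, and for the ratio 1.21 and 1.31 (permutation p = 0.373 and 0.316). Between the 6-seedling families 754_OP and 927_OP, GID was 0.38 higher in 754_OP (exact permutation p = 0.212), DELLA 0.10 higher (exact permutation p = 0.690) and the ratio 0.27 higher (exact permutation p = 0.117).

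The 3 families of 6 seedlings carry repetitions 1 to 6, and their repetitions 1 to 3 were set against 4 to 6. DELLA in 927_OP averaged -5.10 ± 0.31 in repetitions 1 to 3 and -5.86 ± 0.38 in repetitions 4 to 6, and in 754_OP -5.13 ± 0.35 and -5.63 ± 0.05. In both families the sets of 3 did not overlap, and the exact permutation p of 0.1 is the smallest that 3 against 3 allows. GID in the same families was -7.52 and -8.04 in 927_OP (exact permutation p = 0.3) and -7.13 and -7.67 in 754_OP (exact permutation p = 0.2). In 754_PM, where repetitions 4 to 6 are PM by title but carry the sample type of a control, DELLA was -5.36 in both with the deviating well aside (exact permutation p = 1). GID in 754_PM was -7.69 and -7.91 (exact permutation p = 0.2). With those 3 seedlings counted as OP, GID was -0.15 in CC and -0.22 in PM relative to OP (exact permutation p = 0.100 and 0.0887).

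For GID, the choice of TIF wells moved the differences from OP more than leaving out any 1 family or repetition did. Each seedling had 2 TIF wells run with GID and DELLA, which are their deposited reference in 63 of the 69 seedlings, and 3 run with the other genes. The Ct of the 2 wells minus that of the 3 wells ranged from -1.71 to 1.03 cycles over seedlings, with a mean of 0.23 ± 0.56 (SD, n = 69). OP families averaged 0.36 ± 0.22, CC families 0.14 ± 0.23 and PM families 0.11 ± 0.37 (exact permutation p = 0.0929 and 0.146 against OP). The sample-number series were themselves delimited from this offset, so their means only describe them: 0.50 in samples 1 to 24 and 0.55 in samples 33 to 56, against -0.72 in samples 25 to 32, -0.41 in samples 57 to 64 and -0.02 in samples 65 to 69.

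Against the 3 other TIF wells, GID in CC was 1.02 of OP (0.862 to 1.20, exact permutation p = 0.801) and in PM 0.986 of OP (0.765 to 1.28, exact permutation p = 0.912). Against all 5 TIF wells it was 0.959 (0.852 to 1.08, exact permutation p = 0.446) and 0.920 (0.760 to 1.12, exact permutation p = 0.383). DELLA with the deviating wells aside also moved up, from 0.870 of OP in PM against the 2 wells to 1.04 against the 3 (exact permutation p = 0.0383 and 0.672). In CC it moved from 0.971 of OP to 1.13 (exact permutation p = 0.444 and 0.0959). A fixed term for the series was then added against the 3 wells. GID in CC minus OP was -0.0021 and in PM minus OP -0.07 (exact permutation p = 0.981 and 0.639). DELLA in CC minus OP was 0.16 (exact permutation p = 0.0626, adjusted 0.400). Because the series were delimited from the offset between the same TIF wells, these values are no independent check of the choice of wells. The ratio uses no TIF well and is not touched by this choice.

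**Figure D4:**
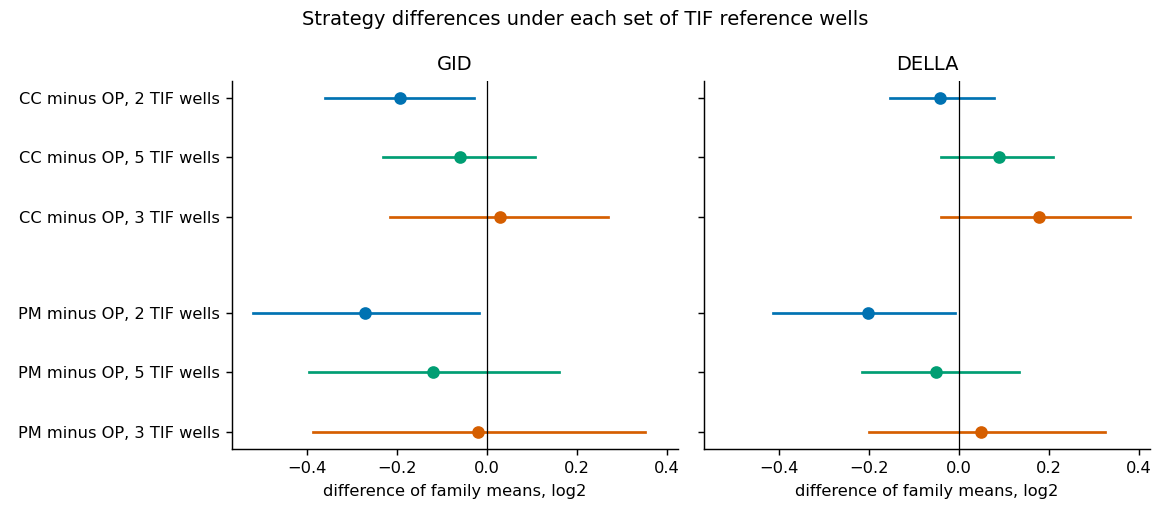
Difference of family means from OP on the log2 scale (x axis) for CC and PM, with GID (left) and DELLA with deviating wells aside (right) recomputed against the 2 TIF wells of their own set, all 5, or the 3 others. Points are differences and lines 95% intervals from the exact permutation test. The GID differences of -0.19 and -0.27 against 2 wells lie near 0 against the 3 others.

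The unnormalized cycles of GID, TIF and DELLA were compared as well. The GID wells themselves crossed at 28.8 ± 0.41 cycles for CC families, 28.9 ± 0.66 for PM and 28.9 ± 0.36 for OP, a difference from OP of -0.12 cycles in CC and 0.07 in PM (exact permutation p = 0.567 and 0.812). The 2 TIF wells crossed at 21.0 ± 0.34 cycles in CC, 21.1 ± 0.69 in PM and 21.3 ± 0.34 in OP (differences of -0.32 and -0.20, exact permutation p = 0.110 and 0.490). The differences in the TIF cycles were larger than those in the GID cycles, and neither passed the test. DELLA cycles with the deviating wells aside differed from OP by -0.27 in CC and -0.0035 in PM (exact permutation p = 0.170 and 0.982). Unnormalized cycles are not corrected for the amount of cDNA, and those of GID and TIF rose together over the 69 seedlings (r = 0.89). The source of these differences was not tested.

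Within the series of sample numbers, GID in PM minus OP was -0.40 in samples 1 to 24 (6 and 11 seedlings) and -0.05 in samples 33 to 56 (8 and 11). DELLA with the deviating wells aside changed sign between them, at -0.23 and 0.13. The 2 lowest DELLA seedlings, 193_PM repetition 2 and 129_PM repetition 2, came from samples 25 to 32, where 3 PM seedlings averaged -6.24 and 2 OP seedlings -5.27. The smaller series hold 1 to 5 seedlings per strategy.

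The correlation of GID with DELLA across families depended on the reference wells. Over the 20 family means Pearson's r was 0.28 as deposited (permutation p = 0.233, adjusted 0.458 over 10 pairs) and 0.64 with the deviating wells aside (permutation p = 0.00209, adjusted 0.0209), with Spearman's rho of 0.36 (permutation p = 0.120) and 0.57 (permutation p = 0.00838, adjusted 0.0838). Without 129_PM and 927_PM, the families farthest from the GID median, r was 0.03 as deposited (permutation p = 0.921) and 0.50 with the wells aside (permutation p = 0.0301). Within a strategy and with the wells aside, CC gave -0.17, PM 0.68 and OP 0.54 (permutation p = 0.879, 0.142 and 0.162, n = 6, 6 and 8).

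When GID was taken against its 2 TIF wells and DELLA against the 3 others, so that no well was shared, r was -0.02 (permutation p = 0.932). The other way round it was -0.17 (permutation p = 0.434). With both against the 3 wells it was 0.80, but there the offset between the sets of TIF wells enters both genes alike. The 2 shared TIF wells likewise enter both genes where r was 0.64. How much either r owes to the shared wells was not tested. Against the 3 wells the SD over families was 0.28 for GID and 0.22 for DELLA, against 0.21 and 0.18 with the 2 wells. The offset between the sets of TIF wells, which enters one gene and not the other under separate wells, had an SD of 0.29 over family means, above the 0.21 of GID and the 0.18 of DELLA. Once a fixed term for the series was added to the separate wells, r was 0.19 either way round (permutation p = 0.413 and 0.435). As the series were read from this same offset, that r is no independent check. Over the 69 seedlings, which share their TIF wells in the same way, r was 0.67 with the deviating wells aside, and from 0.52 to 0.81 within the 5 series.

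**Figure D5:**
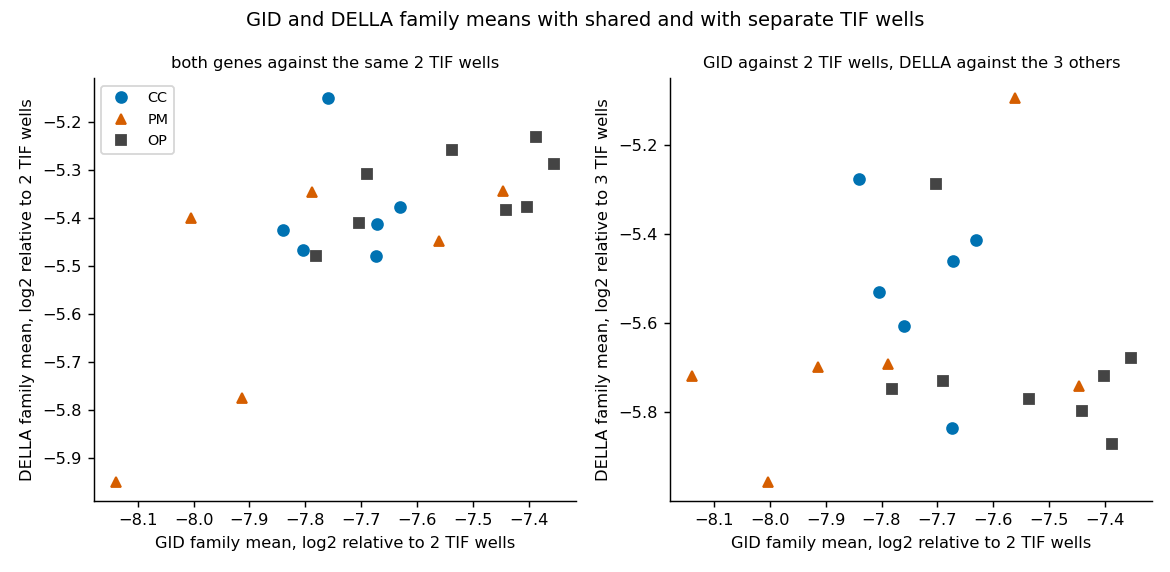
Family means of DELLA (y axis) against GID (x axis), log2 relative to TIF, deviating wells aside, for 20 families coloured by strategy. With the same 2 TIF wells for both genes (left) r is 0.64, and with DELLA against the 3 other TIF wells (right) r is -0.02.

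Among the other genes, the family pattern most like that of GID as deposited was that of GA2ox (r = 0.42, permutation p = 0.0687, adjusted 0.343, n = 20 families). For DELLA as deposited it was GA3ox (r = 0.52, permutation p = 0.0145, adjusted 0.145), which with the deviating wells aside fell to 0.25 (permutation p = 0.290). In 63 seedlings the deposited GID and DELLA values rest on the 2 TIF wells of their own set. There these pairs share no TIF well if GA2ox and GA3ox rest on their own 3 wells, which is not reported here. In 4 seedlings the GID and DELLA values rest on all 5.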

How the data were processed

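Per the labels' protocols, cDNA made from 0.5 µg of RNA was run for 40 cycles with SYBR Green. The authors deposited a threshold cycle (Ct) per well and, in a second sheet, a normalized log2 value per gene. On checking, that value was the mean target Ct minus the mean Ct of the 2 TIF wells of the same set in 63 of 69 seedlings (tolerance 0.001 cycles), the same with all 5 TIF wells in 4, and neither in 2 (927*991_CC repetition 2 and 193_PM repetition 3), for GID and DELLA alike. Its sign was turned so that higher means more. PCR efficiency and thresholds are not given here, depth does not apply, and no value was filtered or imputed.

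GID, DELLA and the lists were chosen with earlier results of these data known. The family was the replicate in most tests. Seedlings were permuted in the F tests over families and in comparisons between or within the families of 6. Family means were compared by exact two-sided permutation, with intervals from the same test. Families and trees were compared by permutation F, and correlations by permutation (100000 resamples each). Benjamini-Hochberg adjustment ran over 15 gene contrasts, 6 ratio contrasts, 5 genes, 2 ratios, 10 pairs and 10 spread contrasts. Where 2 DELLA wells differed by over 2 cycles, the well farther from the median of the other seedlings was set aside in the alternative. Sample-number series (1 to 24, 25 to 32, 33 to 56, 57 to 64 and 65 to 69) were read from shifts between the sets of TIF wells, and no label names them as runs. The rule for names covered both genes in each comparison, the families and seedlings of highest and lowest value, discordant seedlings and the gene most like each. Tests were tried on simulated data. Python 3.11.15, numpy 2.4.6, scipy 1.17.1 and pandas 2.3.3 were used.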

Additional observations from a re-analysis of the deposited data

Results flagged for a closer look

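Of 18 groups of 6 or 8 values examined for a single outlying value, 3 had one. Chance flags about 1 in 20 independent groups. These groups share seedlings, and the ratio repeats the values of both genes, so the count cannot be set against that rate. DELLA in 754_PM repetition 2, at -4.09, stood apart from the other 5 seedlings of its family, which lay between -5.63 and -5.14. The DELLA mean of 927*991_CC, at -4.32, stood apart from the other 5 CC families, which lay between -5.48 and -5.15. The GID to DELLA ratio of 927*991_CC, at -3.48, stood apart from the other CC families, which lay between -2.61 and -2.19. All 3 rest on seedlings with discordant DELLA wells. With the deviating wells aside the same values were -5.29, -5.39 and -2.42.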

How the results depend on the processing

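The 20 tested results (contrasts, F tests, spreads and the correlation) were recomputed under 614 combinations of result and setting. In 582 the direction and the side of the adjusted threshold of 0.05 were kept, in 27 the direction turned and in 5 a result passed the threshold. The cause of these turns was not tested. Some of the 582 could not have turned, because F tests have no direction. Leaving out a family outside a contrast also leaves the value of that contrast unchanged, so the count is not a measure of stability. GID in PM minus OP was negative under all 39 of its settings, GID in CC minus OP under all but the reference of the 3 other TIF wells, where it was 0.029. DELLA in CC minus OP was 0.14 and turned to -0.042 with the deviating wells aside, -0.040 with the 3 seedlings left out and -0.036 with pairs of wells over 0.5 cycles apart left out, to -0.029 with the wells aside and families paired by tree, to -0.0062 with the wells aside and the series as a fixed term, and to -1.17 mean ranks. DELLA in PM minus OP was -0.05 and turned to 0.0046 with the seedling as the unit and with 23 groups of 3 seedlings, to 0.26 on the linear scale, and to 0.11 with all 5, 0.21 with the 3 other and 0.016 with the 3 other TIF wells, wells aside and series fixed. The GID spread in CC minus OP turned from -0.07 to 0.0088 with the 3 TIF wells. The DELLA spread in PM minus OP was 0.15 and passed the threshold with the 3 seedlings left out.

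The correlation of 0.28 passed the threshold at 0.64 with the deviating wells aside, at 0.62 with all 5 TIF wells as well, at 0.80 with the 3 TIF wells as well and at 0.67 with the 3 TIF wells alone, and turned to -0.020 and -0.17 with separate TIF wells. With the 3 TIF wells, the offset between the sets of TIF wells enters both genes and moves them together. Settings that combine the wells aside with another reference, the series or pairing, that use separate TIF wells or that form 23 groups were chosen after seeing the data.

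Leaving out each repetition and each family in turn gave -0.11 to 0.34 for DELLA in CC minus OP, -0.29 to 0.10 in PM minus OP and 0.0058 to 0.33 in CC minus PM. GID ranged from -0.28 to -0.05 in CC minus OP (lowest without repetition 3, highest without repetition 1, exact permutation p = 0.609), from -0.40 to -0.20 in PM minus OP and from -0.013 to 0.16 in CC minus PM. The ratio ranged from -0.43 to -0.14, from -0.30 to -0.12 and from -0.19 to 0.10 in the same order. The DELLA spread ranged from -0.040 to 0.31 in CC and from 0.12 to 0.40 in PM against OP, the GID spread from -0.10 to 0.019 and from -0.076 to 0.16, and the correlation from 0.07 to 0.53.

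The repetition numbers name no block in the labels, and seedlings of repetitions 1, 2 and 3 deviated from their family means by 0.02, 0.03 and 0.04 on average for GID and by -0.07, -0.09 and 0.28 for DELLA, or 0.03, -0.05 and 0.11 with the deviating wells aside. Repetitions 4, 5 and 6, which 3 families have, deviated by -0.20, -0.43 and -0.013 for GID. With the repetition as a replicate block GID was -0.25 in CC minus OP (exact permutation p = 0.00633, adjusted 0.0949) and -0.30 in PM minus OP, and the ratio -0.31 in CC minus OP, and no call changed.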
